A study of Mus musculus with 10 samples.

Results

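The natriuretic peptide system was followed across the regions of the mouse heart through 9 genes. They were the peptide genes Nppa, Nppb and Nppc, the protease genes Corin, Furin and Mme, and the receptor genes Npr1, Npr2 and Npr3. The genes were chosen by name, and their probes were found by matching the RefSeq accession of each array probe to the gene symbol. They held 15 of the 56605 probes and were 9 of the 22907 genes that could be named. The study asked how gene expression in the right ventricle (RV) of the normal heart differs from expression in the septum and the left ventricle (LV). Hearts of C57BL/6N mice, with no operation, drug or altered gene named in the labels, were perfused with cold buffer, divided into the 3 regions, frozen and powdered, and total RNA was hybridised to 1-colour Agilent arrays. There were 10 arrays, with 4 from RV, 3 from LV and 3 from the septum. The age and sex of the mice were not given for these samples, and the labels do not say which arrays came from the same heart, so the p-values measure the spread between these arrays.

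Atrial natriuretic peptide (from Nppa) and brain natriuretic peptide (from Nppb) are hormones of heart muscle cells, released when the wall is stretched, which promote loss of salt and water and relax vessels. Corin and Furin cleave the precursors, Npr1 and Npr2 are receptors that make cyclic GMP, Npr3 is a receptor that mainly clears the peptides, and Mme encodes neprilysin, which degrades them. Atrial muscle keeps Nppa high throughout life, while in ventricular muscle Nppa and Nppb are known as genes of fetal life and of mechanical load.

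Nppb and Nppa lie next to each other on mouse chromosome 4, and the sequences before their starts are shown because these genes had the largest differences of the family between regions. Each line gives the 250 bases before the annotated start in RefSeq, 5′ to 3′ on the plus strand of GRCm38.p6, with matches to the searched motifs in capitals.
Nppb, chr4:147985650-147985899: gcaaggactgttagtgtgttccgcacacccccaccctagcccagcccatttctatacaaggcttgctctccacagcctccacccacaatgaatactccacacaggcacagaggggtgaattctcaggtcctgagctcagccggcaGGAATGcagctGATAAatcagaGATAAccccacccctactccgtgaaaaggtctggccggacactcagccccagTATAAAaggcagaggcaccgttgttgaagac
Nppa, chr4:148000472-148000721: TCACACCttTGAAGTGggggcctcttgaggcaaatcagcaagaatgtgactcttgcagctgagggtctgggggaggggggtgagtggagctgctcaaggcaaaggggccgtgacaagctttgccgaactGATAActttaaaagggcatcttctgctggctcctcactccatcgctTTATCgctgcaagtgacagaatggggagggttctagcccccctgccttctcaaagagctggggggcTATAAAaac
The motifs were searched on both strands and were GATAA (the core bound by GATA factors), TNAAGTG (bound by Nkx2-5), GGTGTGA (bound by T-box factors), CATTCC (bound by TEAD factors), TATAAA (the TATA box) and the CArG box (bound by Srf). No 2 of the matches in these windows overlapped. The Nppb window held 2 matches to GATAA, 1 to CATTCC and 1 to TATAAA. The Nppa window held 2 matches to GATAA, 1 to TNAAGTG, 1 to GGTGTGA and 1 to TATAAA. Of 32851 promoter windows of this length, 22.6% held GATAA, 10.1% TNAAGTG, 3.33% GGTGTGA, 12.6% CATTCC, 12.4% TATAAA and 1.47% a CArG box. Neither window held a CArG box in these letters. The matches describe the letters of the windows and no binding was measured.

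Levels are given as log2 of the processed signal after subtracting the 75th percentile of the array's log2 signals, so a level of 0 lies at that percentile. They can be compared between arrays for 1 probe, not between probes. Probes well above background on all arrays of RV, of LV or of the septum were tested, which left 30234 probes. Of the family, 7 genes with 13 probes were tested and Nppc and Npr1 were not. A difference was called where the adjusted p of the limma fit was below 0.05, with Benjamini-Hochberg adjustment over all tested probes. Between 53.7% and 64.0% of the spots of an array, control and outlier spots left out, were well above background, and no spot was saturated. The arrays lay on 2 slides, with replicates 1 and 2 of each region on slide 1 and the others on slide 2. With the regions as terms, 43.8% of all probes were called between the slides, so values with the slide as a block or within a slide are given where they matter. All 12 cardiomyocyte markers checked, among them Myh6, Tnnt2 and Myl2, were well above background on all 10 arrays.

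In the RV, Nppa and Nppb were lower and Npr3 was higher than in the mean of LV and septum, while Corin, Furin, Mme and Npr2 had no called difference in the fit without a block. This was 3 of the 7 tested genes, against 5.97% of all tested probes in this comparison. The fold differences were 4.80 for Nppa (log2 -2.26, SE 0.44, adjusted p = 0.0197), 11.1 for Nppb (log2 -3.47, SE 0.77, adjusted p = 0.0314) and 2.48 for Npr3 (log2 1.31, SE 0.25, adjusted p = 0.0168). The arrays of the 2 sides did not overlap for these 3 genes, as for 9.78% of all probes. Against LV alone 19.1% of probes had no overlap, and against the septum alone 13.7%. With each region compared alone, Npr3 against LV was the only called difference of the family, 1 of 7 genes against 3.86% of probes. None of 7 genes was called against the septum, where 2.08% of probes were, although 3 had an unadjusted p below 0.05 in the limma fit, as did 14.1% of probes. The test over the 3 regions together called none of the 7 and 2.78% of probes, with adjusted p of 0.0502 for Npr3, 0.0574 for Nppa and 0.0882 for Nppb. With the slide or the replicate number as a block, 4 of the 7 genes were called against LV (Nppa, Nppb, Npr3 and Furin), 3 against the septum (Nppa, Nppb and Npr3) and 4 against both together (Furin added). The shares of all probes called were 17.6%, 8.74% and 20.4% with the slide block and 14.9%, 7.12% and 17.1% with the replicate block. All of these comparisons draw on the same RV arrays. Replicate 4 of RV is the only array with its number, so the differences with the replicate block rest on RV replicates 1 to 3.

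**Figure D1:**
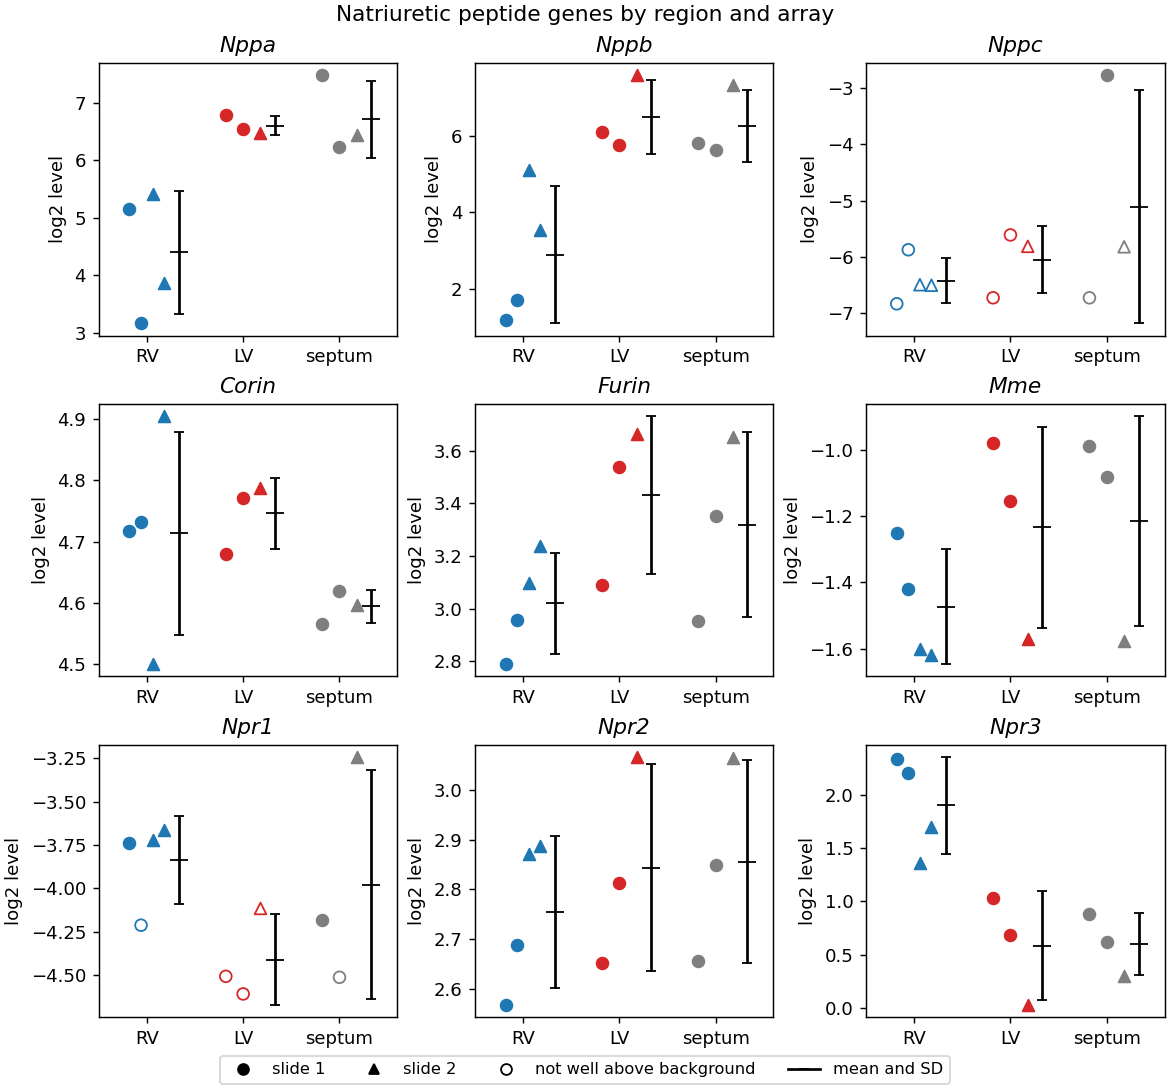
Log2 level (relative to the 75th percentile of the array) of the 9 genes, 1 point per array, by region, with triangles for slide 2, open points for arrays on which the probe was not well above background, and black bars for mean and SD. Nppa and Nppb are below every LV and septum array in all 4 RV arrays, Npr3 is above them in all 4, and Nppc is well above background on 1 septum array.

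Nppb encodes the precursor of brain natriuretic peptide. Its level in the 4 RV arrays was 1.19, 1.72, 5.11 and 3.55 for replicates 1 to 4. In LV replicates 1 to 3 it was 6.10, 5.76 and 7.57. In septum replicates 1 to 3 it was 5.80, 5.63 and 7.33. The highest RV array lay below the lowest array of each other region, and the RV arrays were spread far more widely than the others. The means were 2.89 ± 1.79 (SD, n = 4) for RV, 6.48 ± 0.96 (SD, n = 3) for LV and 6.25 ± 0.94 (SD, n = 3) for septum. RV minus LV was -3.59, a 12.02-fold difference with a 95% interval of -5.62 to -1.55 (SE 0.91, limma adjusted p = 0.0614). RV minus septum was -3.36, or 10.3-fold, with an interval of -5.39 to -1.33 (adjusted p = 0.113). Neither was called in the limma fit without a block, although, of the 27227 probes detected on every array, the 2 probes of Nppb had the lowest and the next lowest difference in RV against LV, against the septum and against both together.

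The spread of Nppb within each region followed the slides. Slide 2 was above slide 1 by 2.87 in RV, 1.64 in LV and 1.62 in septum. The common slide difference was 2.16 (SE 0.35, limma adjusted p = 0.00184), the sixth highest of 30234 probes, and the other Nppb probe was the fifth. On each slide the RV arrays were the lowest. With the slide as a block, RV minus LV was -3.95 (SE 0.41, adjusted p = 0.00123) and RV minus septum was -3.72 (SE 0.41, adjusted p = 0.00176), and both were called. With the replicate number as a block they were -3.81 (adjusted p = 0.00951) and -3.58 (adjusted p = 0.0140), also called. Within slide 1, RV minus LV was -4.48 (adjusted p = 0.00878) and RV minus septum was -4.26 (adjusted p = 0.00628), with 2.72% and 1.58% of all probes called. Within slide 2 they were -3.24 (adjusted p = 0.132) and -3.003 (adjusted p = 0.157), with 1.09% and 0.566% of all probes called. Its direction was the same under each block and on each slide. Without a block, the call of RV against LV and septum together was kept without RV replicate 3 or septum replicate 1 and lost without any 1 of the other 8 arrays (adjusted p from 0.0536 to 0.0840). Without RV replicate 3, the RV array highest in Nppb, the separate comparisons were called, as RV minus LV was -4.33 (adjusted p = 0.0210) and RV minus septum was -4.10 (adjusted p = 0.0337).

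Nppa encodes the precursor of atrial natriuretic peptide. Its level in RV replicates 1 to 4 was 5.16, 3.17, 5.41 and 3.86. In LV replicates 1 to 3 it was 6.79, 6.55 and 6.48. In septum replicates 1 to 3 it was 7.48, 6.23 and 6.45. All RV arrays were below all LV and septum arrays, the LV arrays were close together, and 1 septum array stood above the rest. The means were 4.40 ± 1.07 (SD, n = 4) for RV, 6.61 ± 0.16 (SD, n = 3) for LV and 6.72 ± 0.67 (SD, n = 3) for septum. RV minus LV was -2.21, a 4.62-fold difference with a 95% interval of -3.38 to -1.04 (SE 0.52, limma adjusted p = 0.0504), just above the threshold. RV minus septum was -2.32, or 4.996-fold, with an interval of -3.49 to -1.15 (SE 0.52, adjusted p = 0.0605). The other Nppa probe gave -2.28 and -2.42, and neither passed. Unlike Nppb, Nppa had a slide difference of 0.035 (SE 0.47, adjusted p = 0.958), and its RV arrays differed within each slide. With the slide as a block the differences of -2.21 (adjusted p = 0.0292) and -2.33 (adjusted p = 0.0384) were called, and with a replicate number block those of -2.03 (adjusted p = 0.0347) and -2.14 (adjusted p = 0.0442) were. Within slide 1 they were -2.51 (adjusted p = 0.123) and -2.69 (adjusted p = 0.160), and within slide 2 they were -1.85 (adjusted p = 0.251) and -1.82 (adjusted p = 0.301), so the direction held on each slide with no call. Without a block, the call against LV and septum together was lost without RV replicate 4 (adjusted p = 0.0682), and without RV replicate 3 the differences from LV (-2.54, adjusted p = 0.0341) and from septum (-2.66, adjusted p = 0.0382) were called.

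Because atrial tissue is rich in Nppa, markers of atrial muscle were set beside it. Of 12 such genes, 9 were tested, and Dkk3 was the only 1 called, higher in RV than in LV by 3.08 (adjusted p = 0.0100). Bmp10 and Dhrs9 were well above background on none of the 10 arrays. The summed level of the 12 genes ranged from 4.72 to 6.39 in RV, 4.03 to 5.60 in LV and 5.19 to 8.73 in septum. A summed level is the log2 of the summed unlogged levels, so the genes of highest signal weigh most in it. Septum replicate 1, the highest array for Nppa, was also the highest for Myl7 (6.90), Myl4 (7.71) and Sln (6.21), which encode atrial light chains and sarcolipin. In RV the levels of Myl7 were 4.50, 2.81, 4.04 and 1.84 for replicates 1 to 4, so the 2 RV arrays lowest in Nppa were the 2 lowest in Myl7. In LV replicate 2, however, Myl7 was at 1.14, below every RV array, while Nppa was at 6.55, above every RV array. The part of atrial tissue in the spread of Nppa was not tested. Of 10 genes of conduction and trabecular muscle, where Nppa is also known to be high, 3 were called higher in RV than in LV (3.86% of all probes called). Against the septum 2 were called higher and 1 lower (2.08% of all probes called). The mean of that list relative to all arrays was 0.15 to 0.22 in RV, -0.50 to -0.24 in LV and 0.033 to 0.29 in septum, and its part in the result was not tested. In whole tissue, fewer cells of a type and less RNA per cell cannot be told apart.

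The ratio of the peptides was examined as the Nppb level minus the Nppa level of each array. It was -3.96, -1.45, -0.30 and -0.31 in RV replicates 1 to 4. It was -0.68, -0.78 and 1.09 in LV and -1.68, -0.60 and 0.88 in septum. The regions overlapped, and each was highest on slide 2. RV minus the mean of LV and septum was -1.21, with p = 0.214 in an exact two-sided permutation test over 210 assignments of the arrays. RV replicate 1 carried much of this value, since without it the difference was -0.39 (exact permutation p = 0.619). With arrays exchanged only within a replicate number the p was 0.0370 in the exact test, the smallest that its 27 assignments allow, and with arrays exchanged within slides it was 0.0778.

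Nppc, which encodes C-type natriuretic peptide, a product mainly of endothelium, was not tested. Its probe was well above background on 0 of 4 RV arrays, 0 of 3 LV arrays and 1 of 3 septum arrays, septum replicate 2, where the level was -2.78. On the other 9 arrays its level was between -6.83 and -5.61, none of them well above background.

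The 2 coding genes beyond Nppb on the chromosome had no called difference. RV minus LV was -0.31 for 2510039O18Rik, the next gene beyond Nppb (SE 0.15, limma adjusted p = 0.307), and -0.28 for Plod1 after it (SE 0.27, adjusted p = 0.624). On the other side Clcn6, next to Nppa, was not tested. Against the septum 2510039O18Rik and Plod1 differed by -0.18 (adjusted p = 0.674) and -0.16 (adjusted p = 0.864).

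**Figure D2:**
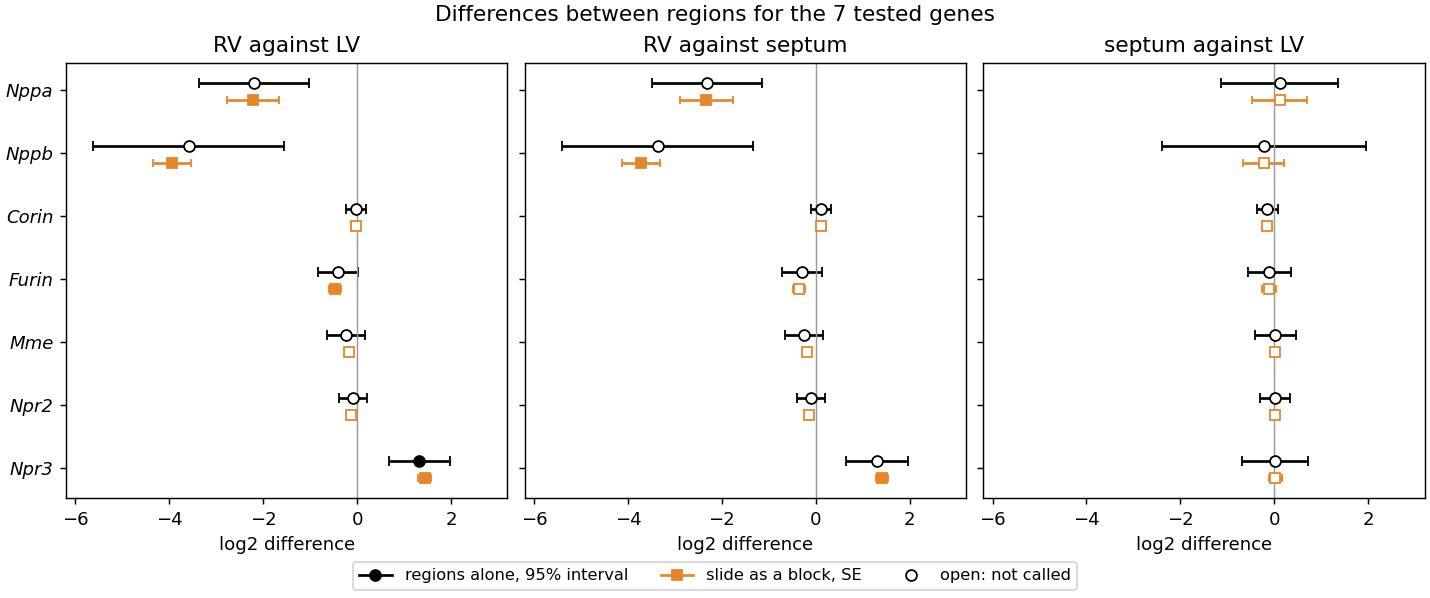
Log2 differences between regions for the 7 tested genes, with circles and 95% intervals for the fit on regions alone and squares with SE for the fit with the slide as a block, and filled symbols for called differences. Nppa and Nppb lie left of 0 and Npr3 right of 0 in both comparisons with RV, while in septum against LV all 7 genes are near 0.

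Of the proteases, Corin encodes the membrane protease of heart muscle cells that cleaves the Nppa precursor. Its level was 4.71 ± 0.17 (SD, n = 4) for RV, 4.75 ± 0.058 (SD, n = 3) for LV and 4.59 ± 0.028 (SD, n = 3) for septum. RV minus LV was -0.032 (95% interval -0.25 to 0.18, adjusted p = 0.888) and RV minus septum was 0.12 (-0.094 to 0.33, adjusted p = 0.654). As a ratio of RV to LV the interval ran from 0.844 to 1.13. The sign against LV turned with quantile normalization (0.041) and with the other probe (0.11). The LV and septum arrays did not overlap, as for 6.98% of all probes in that comparison, and the difference of -0.15 was not called.

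Furin encodes a protease of the secretory pathway that cleaves the Nppb precursor among many others. Its level was 2.79, 2.96, 3.10 and 3.24 in RV replicates 1 to 4, 3.09, 3.54 and 3.66 in LV and 2.95, 3.35 and 3.65 in septum. The regions overlapped, and in each the slide 2 arrays were the highest. RV minus LV was -0.41 (95% interval -0.84 to 0.020, adjusted p = 0.276) and RV minus septum was -0.30 (-0.73 to 0.13, adjusted p = 0.551). With the slide as a block the difference from LV was -0.47 (SE 0.13, adjusted p = 0.0424) and with a replicate number block -0.48 (SE 0.085, adjusted p = 0.0211), both called. Against LV and septum together the blocked values were -0.42 (adjusted p = 0.0340) and -0.43 (adjusted p = 0.0168). Within slide 1 the difference from LV was -0.44 (adjusted p = 0.247) and within slide 2 it was -0.49 (adjusted p = 0.176).

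Mme encodes neprilysin, a membrane protease that degrades the peptides. Its level was -1.47 ± 0.17 (SD, n = 4) for RV, -1.23 ± 0.30 (SD, n = 3) for LV and -1.22 ± 0.32 (SD, n = 3) for septum, and the differences of -0.24 (95% interval -0.64 to 0.17, adjusted p = 0.526) and -0.26 (-0.66 to 0.15, adjusted p = 0.594) were not called. The other probe gave the opposite sign, 0.12 and 0.045. Between slides Mme was called, with slide 2 lower by a log2 difference of -0.42 (SE 0.069, adjusted p = 0.00222), but its other probe had a slide difference of 0.066 (adjusted p = 0.841).

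Of the receptors, Npr3 encodes the clearance receptor, which has no cyclase domain and takes the peptides into the cell. Its level was 2.34, 2.21, 1.36 and 1.70 in RV replicates 1 to 4. In LV replicates 1 to 3 it was 1.04, 0.68 and 0.029, and in septum replicates 1 to 3 it was 0.88, 0.62 and 0.30. Every RV array was above every LV and septum array. The means were 1.90 ± 0.45 (SD, n = 4) for RV, 0.58 ± 0.51 (SD, n = 3) for LV and 0.60 ± 0.29 (SD, n = 3) for septum. Npr3 was 2.50-fold higher in RV than in LV, a log2 difference of 1.32 with a 95% interval of 0.67 to 1.97 (SE 0.29, limma adjusted p = 0.0404). RV minus septum was 1.30, or 2.47-fold, with an interval of 0.65 to 1.95 (SE 0.29, adjusted p = 0.0589), not called. The other Npr3 probe was well above background on 4 of 4 RV arrays but on 1 of 3 LV and 1 of 3 septum arrays. It passed the filter only through RV, so its differences are not given as support.

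Npr3 also differed between slides, and its RV arrays were the highest on each, with slide 2 lower by a log2 difference of -0.69 (SE 0.11, adjusted p = 0.00196). With the slide as a block, RV minus LV was 1.43 (SE 0.13, adjusted p = 0.000829) and RV minus septum was 1.42 (SE 0.13, adjusted p = 0.000818), both called. With the replicate number as a block they were 1.39 (adjusted p = 0.00502) and 1.37 (adjusted p = 0.00451), both called. Within slide 1 the differences were 1.41 (adjusted p = 0.0285) and 1.52 (adjusted p = 0.0208). Within slide 2 they were 1.503 (adjusted p = 0.0593) and 1.23 (adjusted p = 0.0923), of the same size but not called. Without a block, the call against LV was kept without RV replicate 3 or septum replicate 3 and lost without any 1 of the other 8 arrays, with adjusted p from 0.0539 to 0.116. The call against LV and septum together was lost without RV replicate 2 (adjusted p = 0.0522). The difference from the septum was called without RV replicate 3 (1.48, adjusted p = 0.0403) and without LV replicate 3 (1.30, adjusted p = 0.0437).

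The arrays took the opposite order in Npr3 and Nppb within RV. RV replicate 1 had the lowest Nppb and the highest Npr3, and RV replicate 3 had the highest Nppb and the lowest Npr3. The LV and septum arrays of slide 2 lay at the far end, highest in Nppb and lowest in Npr3. The arrays share their region and slide, so this order describes these 10 arrays.

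Some markers of other cell types were also higher in RV. For the counts that follow, 3.86% of all probes were called against LV and 2.08% against the septum, in either direction. Of 11 tested genes of the mesothelium, the cell layer that covers the heart, 1 was called higher in RV than in LV and 10 higher than in the septum. Their summed level was 3.53 to 4.93 in RV, 2.56 to 3.28 in LV and 1.04 to 2.28 in septum. Within RV it was lowest in replicate 3, the array lowest in Npr3, with a mean level over the list relative to all arrays of 0.52 there against 1.89 in replicate 1 and 1.92 in replicate 2. In the fibroblast and endothelial lists the same measure was highest in RV replicate 3 (0.66 and 0.29) and lowest in RV replicate 1 (-0.040 and 0.19), the array highest in Npr3. The endothelial values lay close together, with 0.27 in RV replicate 2 and 0.24 in RV replicate 4, and were not in the reverse order of Npr3. The fibroblast values of RV replicates 2 and 4 were 0.12 and 0.58, so both RV arrays of slide 2 were the higher. Unlike Npr3, the mesothelial genes were lower in septum than in LV, in 11 of 11 genes, with none called. Of 12 endothelial and endocardial genes, 3 were called higher in RV than in LV and 2 higher than in the septum, and their summed level was 6.80 to 6.98 in RV, 6.06 to 6.24 in LV and 6.25 to 6.40 in septum. Of 12 fibroblast genes, 4 and 1 were called higher, with summed levels of 9.19 to 9.46 in RV, 8.73 to 8.86 in LV and 8.95 to 9.05 in septum. Of 12 adipocyte genes, 5 and 3 were called higher. Called or not, 6 were higher and 6 lower in RV than in LV. The mean level over this list relative to all arrays was 0.61 to 0.88 in RV, -1.18 to -0.64 in LV and -0.32 to 0.29 in septum. Their summed level, in which genes of high signal such as Lpl weigh most, was 8.67 to 8.84 in RV, 8.93 to 9.03 in LV and 8.79 to 9.01 in septum. Of 10 blood and immune genes none was called against LV or the septum in the limma fit, and 1 had an unadjusted p below 0.05 in each. The part of these cells in the difference of Npr3 was not tested. Of the 12 cardiomyocyte genes none was called against LV or the septum in the limma fit, where 4 and 1 had an unadjusted p below 0.05, and Ttn was lower in RV than in LV and septum together, by a log2 difference of -0.39. Called or not, 11 of these 12 were lower and 1 higher in RV than in LV, with a median of -0.13. Against the septum 7 were lower and 5 higher, with a median of -0.11. Over all named genes tested the medians were -0.052 and -0.038. The part of heart muscle cell content in the differences of Nppa and Nppb was not tested.

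Npr2 encodes the receptor for C-type natriuretic peptide. Its level was 2.75 ± 0.15 (SD, n = 4) for RV, 2.84 ± 0.21 (SD, n = 3) for LV and 2.86 ± 0.21 (SD, n = 3) for septum. The differences of -0.090 (95% interval -0.39 to 0.21, adjusted p = 0.775) and -0.10 (-0.41 to 0.20, adjusted p = 0.816) were not called, and the other probe gave -0.064 and -0.084. Npr1 encodes the receptor for both cardiac peptides and was not tested. Its probe was well above background on 3 of 4 RV, 0 of 3 LV and 2 of 3 septum arrays. The measured levels were between -4.21 and -3.66 in RV, -4.61 and -4.12 in LV and -4.51 and -3.24 in septum, so the regions overlapped.

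Between the septum and LV no gene of the family was called. In septum minus LV, 0 of the 7 genes had an adjusted p below 0.05 in the limma fit, 0 had an unadjusted p below 0.05, and 0 were called by analysis of variance with Tukey's test. Of all probes 0% were called and 2.85% had an unadjusted p below 0.05. The differences were 0.11 for Nppa (95% interval -1.14 to 1.37), -0.23 for Nppb (-2.40 to 1.95) and 0.018 for Npr3 (-0.68 to 0.72), so for the peptides a difference of over 2-fold in either direction lay within the interval.

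**Figure D3:**
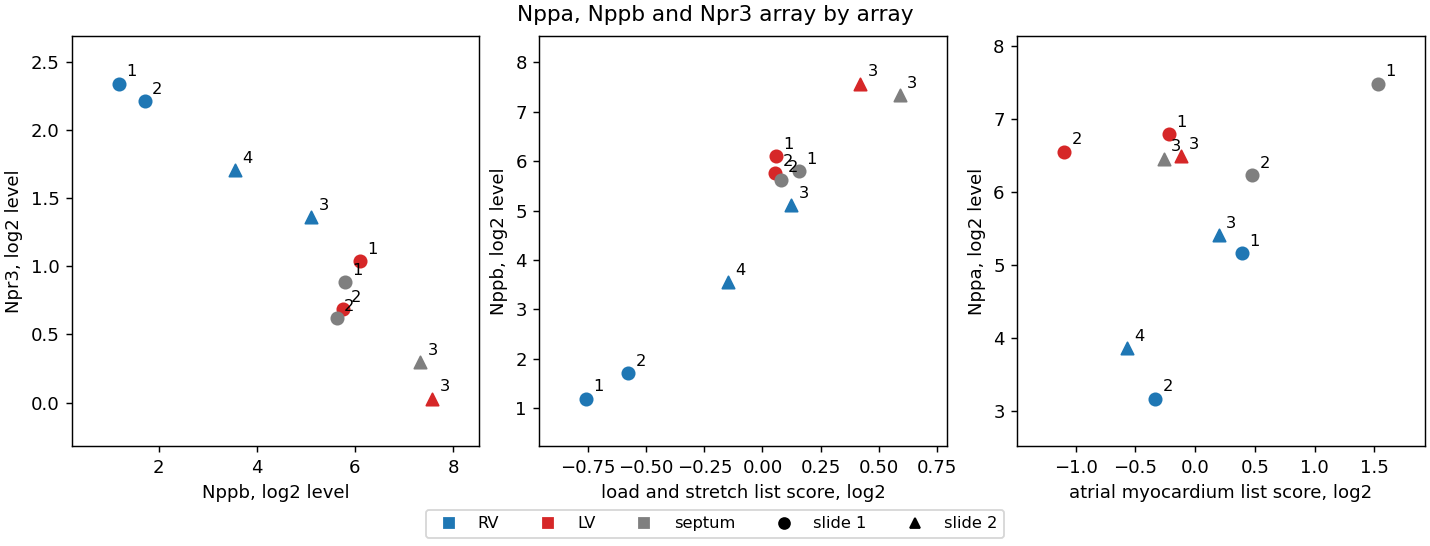
Npr3 level against Nppb level, Nppb level against the mean level of the load and stretch list, and Nppa level against that of the atrial list (all log2, lists relative to the mean of all arrays), 1 point per array with its replicate number, coloured by region, with triangles for slide 2. RV arrays take the low end of Nppb and the high end of Npr3, and LV replicate 2 pairs the lowest atrial value with an Nppa level of 6.55.

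Genes known from the wider pathway were taken from 4 lists. Over the 14641 named genes tested, the median of RV against LV and septum together was -0.046. Among 7 other ligands and proteases, 6 were tested and 2 were called in RV against LV and septum together, where 5.97% of all probes were. Dpp4, a membrane peptidase that trims brain natriuretic peptide, was higher in RV by 1.57 (SE 0.37, adjusted p = 0.0405). Its level was -0.38, -0.60, -2.03 and -1.33 in RV replicates 1 to 4, and the arrays of LV, at -1.97, -2.28 and -3.24, overlapped with these. Ece1, which activates endothelin, was higher by 0.38 (SE 0.074, adjusted p = 0.0197) and by 0.43 against LV alone (adjusted p = 0.0296). Ostn, whose product binds Npr3, was not well above background on any array.

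Among 20 genes that form, read or break down cyclic GMP, 18 were tested and none was called in any comparison of the limma fit without a block, while 6 had an unadjusted p below 0.05 in RV against LV and septum together. Of these 13 were higher and 5 lower in RV than in LV and septum together, with a median of 0.10. Those with the highest signal, the phosphodiesterase genes Pde5a and Pde2a and the regulator Rgs2, had differences of -0.0079 (adjusted p = 0.971), -0.084 (adjusted p = 0.813) and 0.47 (adjusted p = 0.151). With the slide as a block, 6 of the 18 were called, beside 20.4% of all probes. Among 19 transcription factors known to act on Nppa and Nppb, 17 were tested and none was called in the limma fit without a block, where 3 had an unadjusted p below 0.05, with a median of -0.052. Blocking on the slide gave 4 calls among the 17, a share near the 20.4% of all probes called. These 4 were lower in RV, with blocked differences of -0.33 for Gata4 (adjusted p = 0.00151), -0.37 for Srf (adjusted p = 0.00225), -0.62 for Tbx3 (adjusted p = 0.00196) and -0.47 for Tead1 (adjusted p = 0.00143). Their part in the differences of Nppa and Nppb was not tested. Of the 3 factors with the highest signal, without a block, Hopx had -0.18 (adjusted p = 0.267), Mef2a 0.20 (adjusted p = 0.353) and Nkx2-5 -0.14 (adjusted p = 0.720).

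Of 15 genes of the load and stretch response, all tested, 3 were called lower in RV than in LV and septum together and none higher, against 5.97% of all probes called. Called or not, 11 were lower and 4 higher, with a median of -0.38. With the slide as a block 10 were called, against 20.4% of all probes. Csrp3, a stretch-sensing protein of the Z-disc, was lower by a log2 difference of -0.33 (SE 0.061, adjusted p = 0.0157) and was also called against LV (-0.32) and septum (-0.34). Ankrd1, a stretch-induced ankyrin repeat protein, had -1.21 (SE 0.25, adjusted p = 0.0247). Ccn1, a matrix signal, had -0.59 (SE 0.13, adjusted p = 0.0349). Acta1 and Myh7, the skeletal actin and slow myosin genes of the fetal programme, had -1.57 (adjusted p = 0.0721) and -1.35 (adjusted p = 0.0751) and were not called. Within RV, replicate 1 was the lowest array in the mean of this list and in Nppb, and replicate 3 was the highest in both. The list mean relative to all arrays was -0.76 and -0.58 in RV replicates 1 and 2, 0.12 in replicate 3 and -0.15 in replicate 4, and the RV range overlapped the range of LV, 0.055 to 0.42. In the list mean, as in Nppb, the RV arrays of slide 2 (replicates 3 and 4) lay above those of slide 1. The part of load in the differences of Nppb and Nppa was not tested.

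**Figure D4:**
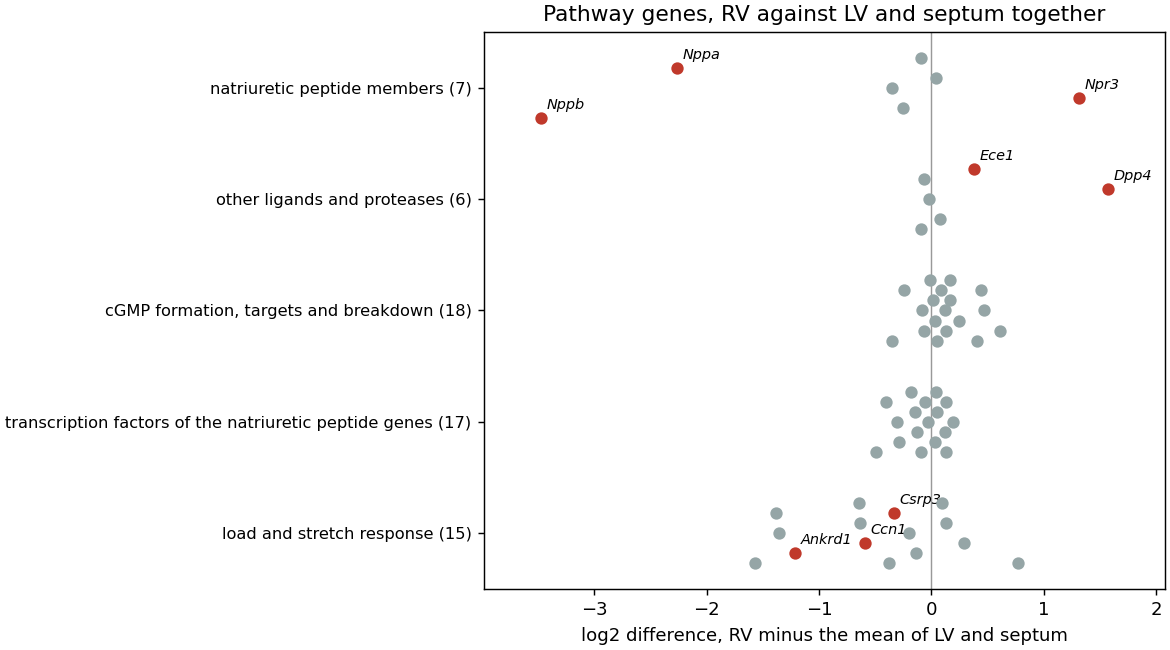
Log2 difference between RV and the mean of LV and septum for each tested gene of the family and of 4 pathway lists, with the number tested in brackets and called genes in red with their names. Nppb (-3.47) and Nppa (-2.26) lie farthest to the left, 3 load and stretch genes are called lower, and no gene of the cyclic GMP or transcription factor lists is called.

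The genes whose levels ran most like those of the 3 called genes over the 10 arrays were sought among 13629 genes well above background on all arrays, by Pearson's r. For Nppb they were Rhoq (0.990), Ankrd23 (0.990), Slmap (0.985), Smim13 (0.984) and Nrap (0.983). For Nppa they were Chmp4c (0.963), Snx4 (0.956), Ppp1r3c (0.942), Herc3 (0.940) and Cd151 (0.938). For Npr3 they were Prr15 (0.988), H19 (0.980), Dpp4 (0.980), Shroom2 (0.977) and Selenop (0.976). No gene stood in 2 of these lists. The arrays share region and slide, and these coefficients describe the 10 arrays alone.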

How the data were processed

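Total RNA of RV (n = 4), LV (n = 3) and septum (n = 3) was measured on 1-colour Agilent mouse arrays, and groups were taken from the sample titles. The authors scanned the arrays and extracted them with Agilent Feature Extraction 11.5.1.1, and the deposited files hold background-corrected signal intensity per spot. The file of RV replicate 1 held 4268 distinct signal values, against 62219 to 62859 in the files of the other arrays, so its signals were recorded more coarsely. Per the file headers the array design used mm9, whose coordinates were not used. The deposited series table holds the log2 values of the same arrays, already scaled, which the authors made with GeneSpring. It correlated with the values used here at r = 1 on every array, within 0.05 for 100% of probes, and served as an alternative.

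Control and outlier spots were left out, repeat spots were averaged, and log2 of the processed signal was taken relative to its 75th percentile on that array. The probe with the highest mean stood for a gene, and disagreeing probes are named. Of 56605 probes, 32989 were named through RefSeq accessions. Region means were fitted with limma 3.58.1 in R 4.3.3 over all 10 arrays, with Benjamini-Hochberg adjustment over 30234 probes, and the script was tested on simulated data. The study's own analysis of variance with Tukey's correction, other scalings and filters, blocks, within-slide fits and leaving out each array were alternatives. The normexp alternative used the median spot signal. Slides come from the scanner files.

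The same-numbered arrays of different regions deviated together (9 pairs, r of deviations from the region means 0.36 to 0.64), against -0.56 to -0.21 for 16 pairs on different slides and 0.090 to 0.58 for 8 pairs on the same slide with different numbers. The numbers come from the titles, which do not state a shared heart. Same-numbered arrays always lie on the same slide, so this check cannot separate a shared heart from a shared slide. RV replicate 4 correlated with LV and septum replicate 3 at 0.57 and 0.58, above RV replicate 3 at 0.43 and 0.44. The pairing by number was therefore not established. The number of arrays limits the precision.

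Named genes were all members, called genes of the pathway lists or else those of highest mean level, and the 5 genes most like each called member. The members, lists and comparisons were chosen with earlier results of these data known. The 250-base windows were taken from RefSeq promoter sequences of GRCm38.p6.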

Additional observations from a re-analysis of the deposited data

Results flagged for a closer look

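In RV replicate 2 the Npr1 probe stood apart from the other 3 RV arrays, at -4.21 against -3.74 to -3.66. The gap to the nearest array was 0.863 of the range of the 4 arrays, which is past Dixon's 95% critical value. Chance flags about 1 in 20 groups, and the probe was not well above background on that array.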

How the results depend on the processing

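The RV differences of Nppa, Nppb and Npr3 kept their direction under every alternative run, while their calls did not. In RV against LV the number of called genes, 1 without a block, was 3 with normexp, 0 without a filter on low values, 2 with only probes well above background on all arrays, 4 with the slide as a block, 4 with a replicate block, 2 within slide 1 and 0 within slide 2. By the study's analysis of variance it was 3 before Benjamini-Hochberg adjustment, with 13.6% of all probes, and 0 after it, with 1.43%. Leaving out 1 array gave 0 to 3. In RV against septum, 0 without a block, it was 1 with median scaling, 1 with normexp, 3 with the slide block, 3 with the replicate block, 2 within slide 1, 3 by the unadjusted analysis of variance (9.22% of all probes) and 0 to 3 without 1 array (3 without RV replicate 3, 1 without LV replicate 3). In RV against both together, 3 without a block, it was 0 without a filter, 4 with the slide block, 4 with the replicate block, 2 within slide 1, 1 within slide 2 and 1 to 3 without 1 array. In the test over the 3 regions, 0 without a block, it was 1 with median scaling, 1 with normexp, 1 with only probes above background everywhere, 3 with the slide block, 3 with the replicate block, 2 within slide 1, 3 by the unadjusted analysis of variance (16.3% of all probes) and 0 to 3 without 1 array. Causes were not tested. Without a filter 56605 probes were fitted and adjusted for, and the SE also changed, for Npr3 in RV against LV from 0.29 to 0.31. Septum against LV gave 0 in all alternatives.

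The Nppb minus Nppa difference of -1.21 passed only with the replicate block (exact permutation p = 0.0370) and ranged from -1.61 to -0.39 without 1 array, the last without RV replicate 1. Fitting the slide as a comparison of its own, and permuting the ratio within slides, were chosen after seeing the data.

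Signs turned only for uncalled differences. Corin in RV minus LV was 0.041 with quantile normalization, 0.023 with scaling on probes detected everywhere, 0.11 with its other probe and 0.039 without RV replicate 3 (-0.096 to 0.039 without 1 array), and against both regions -0.020 with the replicate block and without RV replicate 4. Mme with its other probe was 0.12 against LV, 0.045 against septum and 0.081 against both. Npr2 was 0.022 against LV without LV replicate 3 and 0.0025 against septum without septum replicate 3, the highest of ranges that began at -0.19 and -0.20. In septum minus LV, Mme was -0.0074 with quantile normalization, -0.046 with median scaling, -0.0062 within slide 2 and -0.15 to 0.20 without 1 array. Npr2 was -0.053 with median scaling, -0.0016 within slide 2 and -0.092 to 0.12 without 1 array. Npr3 was -0.047 with median scaling, -0.11 within slide 1 and -0.26 to 0.24 without 1 array. Nppa was -0.031 within slide 2 and -0.27 without septum replicate 1 (range -0.27 to 0.36). Without LV replicate 3 Nppb was 0.32 and Furin 0.0038, and without septum replicate 1 they were 0.0013 and 0.071, and without septum replicate 2 Nppb was 0.085, in ranges of -0.77 to 0.32 and -0.28 to 0.071.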
